A study of Homo sapiens with 4 samples.

Results

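The genes described here encode the inhibitors of cyclin-dependent kinases (CDKs) and the retinoblastoma family, the braking proteins of the G1 phase of the cell cycle. The 10 genes were taken by symbol from the 25192 genes of the deposited tables: CDKN1A, CDKN1B and CDKN1C of the CIP/KIP family, CDKN2A, CDKN2B, CDKN2C and CDKN2D of the INK4 family, and the pocket protein genes RB1, RBL1 and RBL2. RNA-seq libraries came from A549, a human lung adenocarcinoma cell line. In 2 libraries (EV) the cells carried the control virus, which expresses GFP alone, and in the other 2 they carried a virus of the same kind that expresses FCN3, a secreted lectin, with a V5 tag, beside GFP. All 4 libraries were made 48 h after infection. The libraries are numbered 1 and 2 within each group and were compared both without and with that number as a block. The labels do not say what a shared number stands for or whether replicates were separate cultures, so p-values measure only the spread between these libraries.

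CDKs drive cells from G1 into S phase by phosphorylating the pocket proteins, which otherwise hold E2F transcription factors in check. CIP/KIP proteins bind complexes of cyclins with CDK2 and, in other settings, help cyclin D assemble with its kinases, whereas INK4 proteins bind CDK4 and CDK6 alone and keep cyclin D from joining them. pRB (RB1) restrains the activating E2F factors, and p107 (RBL1) and p130 (RBL2) work with repressive E2F factors and, in the DREAM complex, with the MuvB proteins. In lung cancer this brake is often lost, and A549 is known to lack CDKN2A while keeping RB1.

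The libraries held between 16353554 and 35733735 expected counts. FCN3 was at 1 and 0 counts in the EV libraries and at 722388 and 448352 counts with the FCN3 virus, which fits the labels. All 10 epithelial and A549 marker genes were at 1 TPM (transcripts per 1000000, scaled for gene length) or more in every library, with summed levels of 18804 and 21185 TPM in EV and 16932 and 19054 TPM with the FCN3 virus. Among the markers of other cell types, the 3 endothelial genes summed to at most 0.08 TPM and the 4 leukocyte genes to at most 1.99 TPM, with PECAM1 and CD3E at 0 in every library. The 4 fibroblast genes summed to 3.53 and 8.59 TPM in EV and 2.76 and 8.20 TPM with the FCN3 virus, nearly all of it COL1A1.

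In counts scaled to library size (CPM), CDKN1A was 1.72-fold higher with the FCN3 virus. CDKN2C was at 0.337 of its EV level and RBL1 at 0.657 of its EV level. The log2 differences of CDKN1B, RB1 and RBL2 lay between -0.16 and -0.08. TPM ran lower with the FCN3 virus over all tested genes. Their median log2 fold change was -0.07 on log2(TPM + 1), beside 0.02 in the main fit of counts. CDKN1A (p21) is a broad inhibitor of cyclin-CDK complexes, CDKN2C (p18) is an INK4 inhibitor of CDK4 and CDK6, and RBL1 encodes p107. 7 of the 10 members passed the filter on low counts and were tested, and CDKN1C, CDKN2A and CDKN2B did not pass. In edgeR's quasi-likelihood test at a false discovery rate (FDR) of 0.01 without the replicate block, 0 of the 7 were called, in a comparison where 0.965% of the 14099 tested genes were called (0.738% higher and 0.227% lower). 3 of the 7 had an unadjusted p under 0.05, as had 25.1% of all tested genes. At an FDR of 0.05 edgeR called CDKN1A and CDKN2C, 28.6% of the 7, where 7.19% of tested genes were called. DESeq2 called the same pair at 0.01 (background 7.64%). With the replicate block, edgeR called CDKN1A, CDKN2C and RBL1, against a background of 36.2% of all tested genes (19.1% higher and 17.1% lower). DESeq2 with the block called the same 3, against a background of 16%. The share of members called, 42.9% in both blocked fits, was thus close to the background in edgeR and above it in DESeq2. By size of difference CDKN2C stood out more. Its absolute log2 fold change ranked at percentile 98.0 of the tested genes, that of CDKN1A at 90.5 and that of RBL1 at 84.7. CDKN2D, from low counts and called in none of these fits, ranked at 84.8, level with RBL1. In bulk RNA, fewer cells that express a gene and less of its RNA per cell cannot be told apart.

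**Figure D1:**
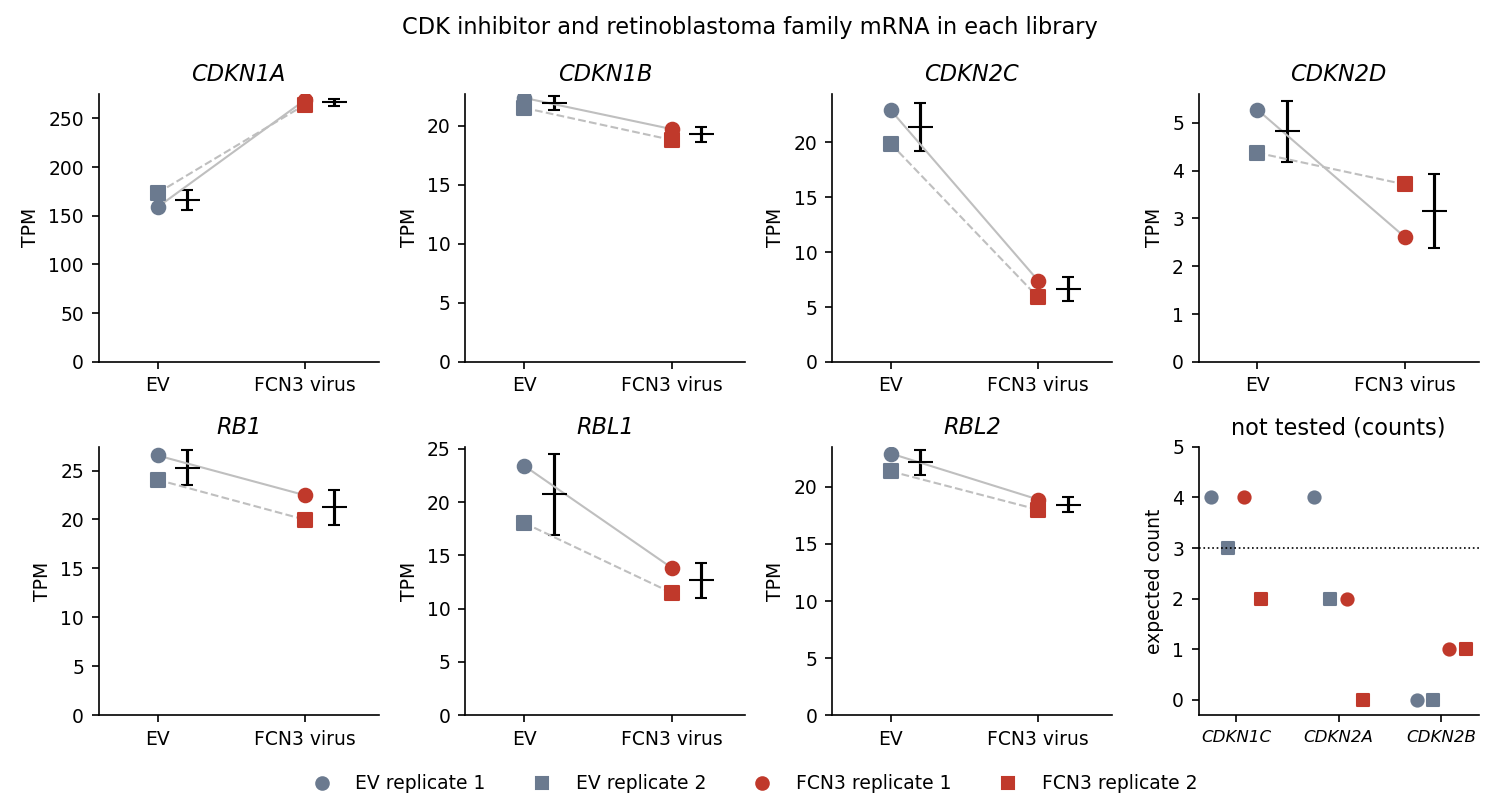
TPM (vertical axes, from 0) of the 7 tested members in each library, with lines joining same-numbered libraries (solid for replicate 1, dashed for replicate 2) and black marks for the mean and SD of 2 libraries, and, in the last panel, the expected counts of the 3 untested members with a dotted line at the floor of 3 counts. CDKN1A lay higher with the FCN3 virus in both pairs, and the other 6 tested members lay lower in both, as they also did in CPM. TPM ran lower with the FCN3 virus over all tested genes (median log2 fold change -0.07). In the main fit of counts 48.1% of all tested genes were lower.

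The stretches before the annotated starts of CDKN1A, CDKN2C and RBL1 are shown because these were the members called with the replicate block. The sequences are from RefSeq on GRCh38.p14 and were found once each, unchanged, on GRCh37, the build of the files (hg19), from which the positions are given. Each is 250 bases long, is written 5′ to 3′ on the strand of the gene and ends at the base before the start. Capitals mark the GC box GGGCGG in CDKN1A and CDKN2C, and the E2F motifs TTTCGCGC and TTTGGCGC in RBL1.
CDKN1A, chr6:36646241-36646490, plus strand: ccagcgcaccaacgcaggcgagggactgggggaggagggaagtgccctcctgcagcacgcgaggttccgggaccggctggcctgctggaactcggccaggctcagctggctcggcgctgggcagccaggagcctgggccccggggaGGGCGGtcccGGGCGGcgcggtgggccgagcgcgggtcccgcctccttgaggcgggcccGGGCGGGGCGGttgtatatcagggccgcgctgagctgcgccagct
CDKN2C, chr1:51434128-51434377, plus strand: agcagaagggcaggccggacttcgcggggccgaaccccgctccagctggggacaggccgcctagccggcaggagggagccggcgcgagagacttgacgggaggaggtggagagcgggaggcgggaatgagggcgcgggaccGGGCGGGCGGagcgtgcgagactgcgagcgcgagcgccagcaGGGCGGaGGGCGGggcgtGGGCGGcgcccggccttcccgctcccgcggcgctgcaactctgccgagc
RBL1, chr20:35724401-35724650, minus strand: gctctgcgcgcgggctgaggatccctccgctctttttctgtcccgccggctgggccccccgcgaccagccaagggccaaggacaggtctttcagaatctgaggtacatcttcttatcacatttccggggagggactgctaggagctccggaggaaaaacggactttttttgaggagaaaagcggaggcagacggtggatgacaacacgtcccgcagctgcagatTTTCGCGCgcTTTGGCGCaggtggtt

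Windows of 300 bases, 250 before and 50 after the start, were searched on both strands for an E2F motif (TTTCCCGC, TTTGGCGC, TTTCGCGC or TTTGCCGC), for the CHR element of DREAM targets (TTTGAA) and for the GC box. RBL1 held both of its E2F matches within 26 bases of the start, at -26 to -19 and at -16 to -9. No other member's window held an exact match to these words. Looser forms of the E2F motif were not searched, so their absence elsewhere was not tested. Among all 35116 windows in the table, 3.31% held an E2F motif. CDKN1A held 4 GC boxes, of which those at -45 and -40 overlap by 1 base, and the CDKN2C window shown held 6, of which 2 overlap and 1 lies after the start. The table gives 3 starts for CDKN2C, and the one shown has the most GC boxes. A GC box was found in 45.0% of all windows. The CHR element was found in 1 window of RBL2, after its start, and in 15.2% of all windows. The stress response motifs ERSE and CARE (TGATGNAA) were in none of the members' windows, against 0.0769% and 3.62% of all windows. CDKN1C has no entry in the table, and the RB1 entry lies inside the gene rather than at its first exon.

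Among the CIP/KIP genes, CDKN1A (chromosome 6 of GRCh37, 36644237 to 36655114, plus strand) was at 159 and 173 TPM in EV replicates 1 and 2 and at 269 and 264 TPM in FCN3 replicates 1 and 2. Both libraries with the FCN3 virus lay above both EV libraries, and the gap between the groups was larger than the gap between replicates. The log2 fold change was 0.78 (standard error, SE, 0.09, edgeR quasi-likelihood test, adjusted p = 0.0122, and 1.69e-09 in DESeq2). With the replicate block it was 0.79 (SE 0.05, edgeR adjusted p = 2.61e-18). The blocked fit leaves little information on each gene's own spread. Its p-values, here and below, thus rest largely on spread pooled across genes. Between the replicate 1 libraries the log2 difference was 0.88 and between the replicate 2 libraries 0.69. Rounded expected counts of 6298, 3183, 10777 and 6107 stood behind these values.

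CDKN1B (chromosome 12, 12838432 to 12875303, plus strand) encodes p27, which is regulated chiefly by protein turnover. It was at 22.4 and 21.5 TPM in EV and at 19.7 and 18.8 TPM with the FCN3 virus. The groups did not overlap, but the difference was small, with a log2 fold change of -0.08 (SE 0.11, edgeR adjusted p = 0.682, 0.422 with the replicate block). The groups also failed to overlap in 54.5% of all tested genes, so non-overlap of this kind was common. CDKN1C (chromosome 11, 2904443 to 2907005, minus strand), the imprinted gene of p57, had 4 and 3 expected counts in EV and 4 and 2 with the FCN3 virus. At floors of 3 counts, which correspond to between 0.0823 and 0.179 CPM (counts scaled to library size), no difference in CDKN1C was detectable at this depth.

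CDKN2C (chromosome 1, 51426417 to 51440306, plus strand) showed the largest difference of the 7 tested members. It was at 22.9 and 19.9 TPM in EV and at 7.40 and 5.87 TPM with the FCN3 virus. Every library with the FCN3 virus was below 8 TPM and every EV library was above 19 TPM. The log2 fold change was -1.56 (SE 0.18, edgeR, adjusted p = 0.0129, and 2.41e-08 in DESeq2). With the replicate block it was -1.57 (SE 0.11, edgeR adjusted p = 1.49e-17). The same-numbered libraries differed by -1.53 and -1.62 on the log2 scale, so the pairs gave nearly the same value.

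CDKN2D (chromosome 19, 10677136 to 10679735, minus strand) encodes p19, the remaining INK4 inhibitor with counts above the filter. It was at 5.27 and 4.37 TPM in EV and at 2.61 and 3.71 TPM with the FCN3 virus. The FCN3 libraries were the lower ones, but their own spread was wide, and the pairs gave log2 differences of -0.90 and -0.21. Its log2 fold change was -0.61 (SE 0.28, edgeR adjusted p = 0.252, 0.0211 with the replicate block), from counts between 41 and 104. Without FCN3 replicate 1 it was -0.35, and without FCN3 replicate 2 it was -0.81. Summed over the 4 INK4 genes, the level was 28.4 and 24.4 TPM in EV and 10.1 and 9.60 TPM with the FCN3 virus. CDK4 and CDK6, the kinases that INK4 proteins bind, summed to 331 and 282 TPM in EV and 260 and 235 TPM with the FCN3 virus. Per 100 TPM of these kinases there were thus 8.58 and 8.68 TPM of INK4 mRNA in EV and 3.89 and 4.09 TPM with the FCN3 virus. The smallest two-sided p that exact permutation of 4 libraries allows is 0.33, so this ratio was left as a description.

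**Figure D2:**
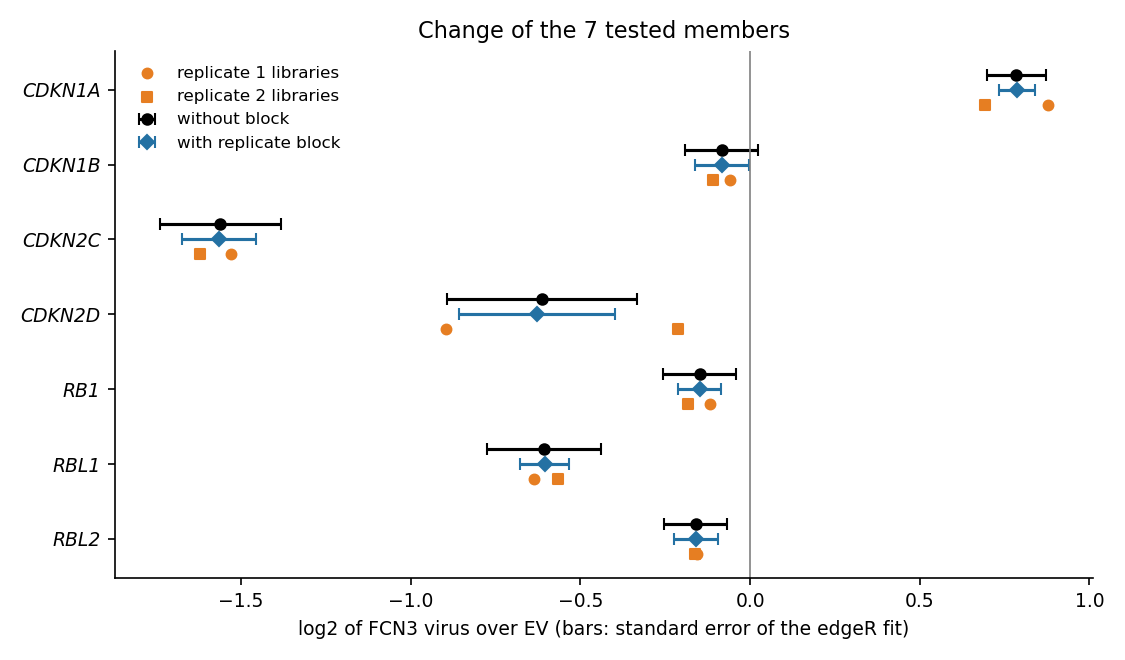
Log2 of FCN3 virus over EV (horizontal axis) for the 7 tested members, from edgeR without the block (black circles) and with it (blue diamonds), bars giving the standard error, and from the replicate 1 (orange circles) and replicate 2 (orange squares) libraries alone. The block left the estimates in place, at 0.78 against 0.79 for CDKN1A and -1.56 against -1.57 for CDKN2C, and narrowed their errors, while the pairs lay far apart for CDKN2D (-0.90 and -0.21).

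CDKN2A and CDKN2B lie next to each other on chromosome 9. CDKN2A (21967751 to 21995300, minus strand) encodes p16 and, in another reading frame, ARF. Its expected counts were 4 and 2 in EV and 2 and 0 with the FCN3 virus. CDKN2B (22002902 to 22009304, minus strand), the gene of p15, had 0 and 0 counts in EV and 1 and 1 with the FCN3 virus. Both genes were thus at or close to the floor of 3 counts in every library, and no difference was detectable at this depth. The antisense transcript CDKN2B-AS1, whose exons overlap CDKN2A, had 1 count in 1 library and 0 in the other 3.

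Genes on both sides were read to see how far this low level reached. MTAP, the nearest protein-coding gene among them, with its midpoint at -125.2 kb from the start of CDKN2A, was at 2.15 and 2.15 TPM in EV and 1.79 and 1.79 TPM with the FCN3 virus. KLHL9, farther out on the same side, was at 26.4, 22.4, 22.3 and 20.5 TPM in the order EV 1, EV 2, FCN3 1 and FCN3 2. FOCAD was between 22.3 and 32.8 TPM and MLLT3 between 15.3 and 25.2 TPM. Beyond CDKN2B, DMRTA1 was between 1.37 and 1.75 TPM and the neuronal gene ELAVL2 between 0.03 and 0.12 TPM. The interferon genes between FOCAD and MTAP were low as well, with IFNA1 at 0 in every library, IFNB1 at 1 count in 1 library and IFNE between 0.42 and 0.59 TPM. Of these 10 neighbours, 6 were tested and 0 were called by edgeR without the block, with 0 at an unadjusted p under 0.05 and 0 called in DESeq2. With the block edgeR called MLLT3 (log2 fold change 0.43, adjusted p = 1.76e-06) and FOCAD (0.35, adjusted p = 1.12e-06). That was 33.3% of the 6, near the 36.2% of all tested genes.

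**Figure D3:**
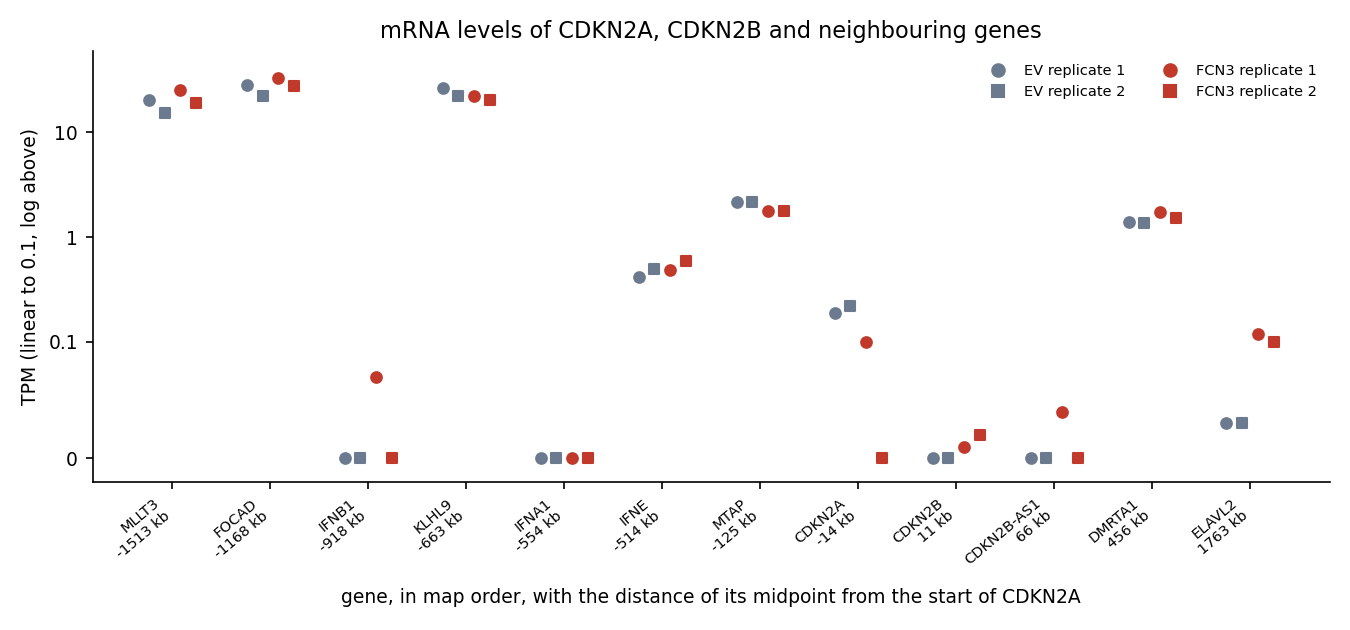
TPM in each library (vertical axis, linear from 0 to 0.1 and logarithmic above) of CDKN2A, CDKN2B and 10 neighbouring genes in map order, labelled with the distance of each midpoint from the start of CDKN2A. CDKN2A, CDKN2B and CDKN2B-AS1 lie between 0 and 0.22 TPM, between MTAP near 2 TPM on one side and DMRTA1 above 1 TPM on the other.

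The differences among the pocket protein genes were unequal in size. RBL1 (chromosome 20, 35624752 to 35724400, minus strand), itself known as a gene under E2F control, was at 23.4 and 18.04 TPM in EV and at 13.8 and 11.5 TPM with the FCN3 virus. Both FCN3 libraries were below both EV libraries, and in each group replicate 1 was the higher. The log2 fold change was -0.61 (SE 0.17, edgeR adjusted p = 0.0988, 0.0246 in DESeq2), and it missed the threshold without the block. With the replicate block it was again -0.61 (SE 0.07, edgeR adjusted p = 4.61e-10, 1.38e-05 in DESeq2). The pairs gave -0.64 and -0.57. Without EV replicate 1 and without the block the log2 fold change was -0.40.

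RB1 (chromosome 13, 48877880 to 49173572, plus strand) was at 26.5 and 24.1 TPM in EV and at 22.5 and 19.98 TPM with the FCN3 virus, with a log2 fold change of -0.15 (SE 0.11, edgeR adjusted p = 0.457, 0.0459 with the replicate block). In CPM, where EV replicate 2 was at 61.0 and FCN3 replicate 1 at 61.4, the groups overlapped. RBL2 (chromosome 16, 53467889 to 53525560, plus strand) was at 22.9 and 21.4 TPM in EV and at 18.9 and 18 TPM with the FCN3 virus. Its log2 fold change was -0.16 (SE 0.09, edgeR adjusted p = 0.355, 0.0362 with the replicate block), and the pairs gave -0.16 and -0.16. Neither gene passed the threshold in either fit. RBL2 shares exon sequence with AKTIP on the opposite strand, and their fractional expected counts (2149.48 and 918.52 in EV replicate 1) added up to a whole number in every library, so part of the RBL2 count depended on how reads were divided between them.

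Ratios within a library do not depend on scaling between libraries. RBL1 made up 32.1% and 28.4% of the summed TPM of the 3 pocket protein genes in EV and 25.1% and 23.2% with the FCN3 virus. RB1 took 36.4% and 37.9% in EV and 40.7% and 40.4% with the FCN3 virus, and RBL2 took 31.5% and 33.7%, then 34.2% and 36.4%. The log2 ratio of RBL2 to RBL1 was -0.03 and 0.24 in EV and 0.45 and 0.65 with the FCN3 virus, whereas that of RB1 to RBL2 lay between 0.15 and 0.25 in all 4 libraries with both groups mixed. Among the 7 inhibitors, CDKN1A held 75.7% and 79.0% of the summed TPM in EV and 90.0% and 90.3% with the FCN3 virus. The share of CDKN2C was 10.9% and 9.05% in EV and 2.48% and 2.01% with the FCN3 virus. That of CDKN1B was 10.7% and 9.80%, then 6.60% and 6.43%. Shares add up to a fixed total, so a higher share of CDKN1A lowers the others, and CDKN1B itself differed by -0.08 on the log2 scale. The shares of RB1 and RBL2 were likewise higher although their own log2 fold changes were -0.15 and -0.16.

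**Figure D4:**
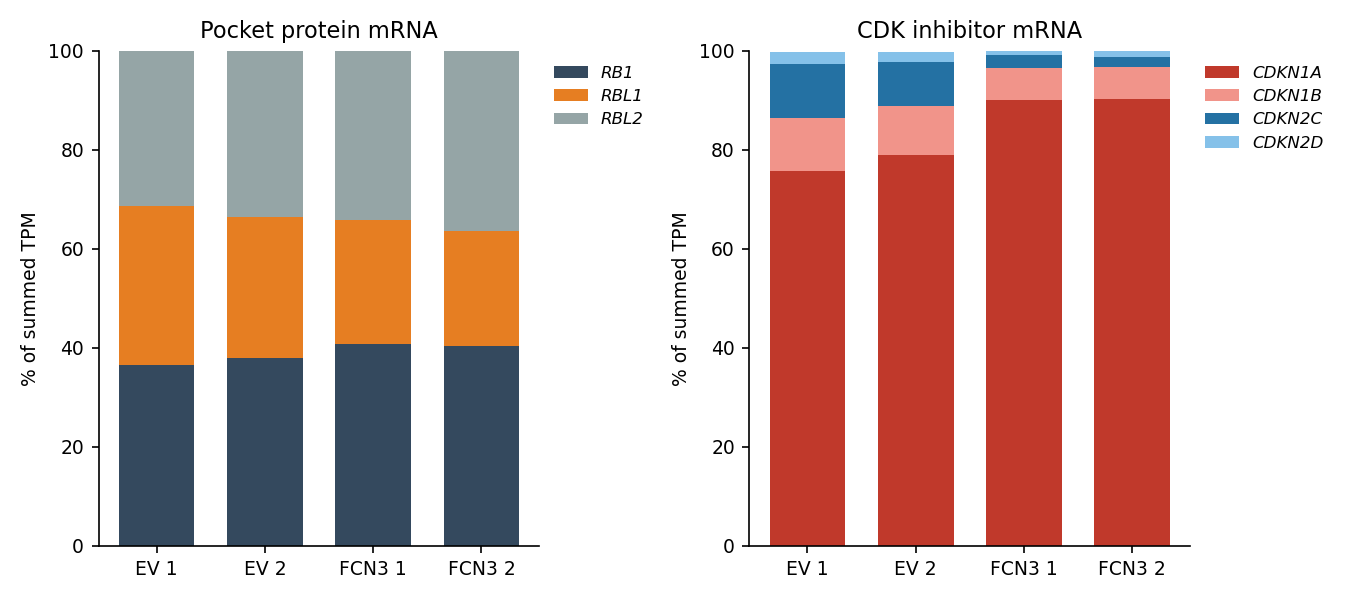
Share of each gene (vertical axis, percent of the summed TPM) among the pocket protein genes (left) and among the 7 CDK inhibitor genes (right), 1 bar per library. CDKN1C, CDKN2A and CDKN2B, whose shares were very low, count in the total but were not drawn. The share of RBL1 was lower, and that of CDKN1A higher, in both FCN3 libraries than in both EV libraries.

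The order of the levels also differed between the groups. In EV, CDKN1A stood far above the rest at 166 ± 10.3 TPM (SD, n = 2), followed by RB1 at 25.3 ± 1.75, RBL2 at 22.1 ± 1.10, CDKN1B at 21.9 ± 0.601, CDKN2C at 21.4 ± 2.16 and RBL1 at 20.7 ± 3.80 TPM, and then by CDKN2D at 4.82 ± 0.636 TPM. The EV values of RBL2, CDKN1B, CDKN2C and RBL1 overlapped from one neighbour to the next, while those of RB1 lay above RBL2 and those of CDKN2D below RBL1. With the FCN3 virus the order was CDKN1A at 266 ± 3.36 TPM, RB1 at 21.2 ± 1.77, CDKN1B at 19.3 ± 0.651, RBL2 at 18.4 ± 0.629, RBL1 at 12.7 ± 1.66, CDKN2C at 6.64 ± 1.08 and CDKN2D at 3.16 ± 0.778 TPM. There only CDKN1B and RBL2 overlapped, although RB1 was close above them, and RBL1 and CDKN2C each lay apart from their neighbours.

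The replicate number was tested in the same blocked fit. RBL1 differed between replicates 1 and 2 by 0.33 on the log2 scale (SE 0.07, edgeR adjusted p = 2.91e-04) and was the 1 member called, where 22.1% of all tested genes were called. RBL1 was higher in replicate 1 by 0.36 between the EV libraries and by 0.29 between the FCN3 libraries. CDKN2C (0.27, adjusted p = 0.0489 in edgeR) and RB1 (0.16, adjusted p = 0.0423 in edgeR) had replicate differences of the same sign that did not pass 0.01, and CDKN1A had -0.04 (adjusted p = 0.564 in edgeR). Replicate 1 was also the deeper library in both groups, and the part of depth in these differences was not tested.

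The genes around the brake were read from 6 lists of 81 genes in all, of which 79 were tested. edgeR called 5 of the 79, all lower, without the block, and with it 49 lower and 7 higher, against 17.1% lower and 19.1% higher among all tested genes. Without the block, 59.5% of the 79 had an unadjusted p under 0.05, beside 25.1% of all tested genes. The median log2 fold change over the 79 was -0.39, beside 0.02 over all tested genes. The lists were chosen with earlier results of these data known, so these values describe the lists and test nothing.

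Of the cyclins and CDKs that the inhibitors act on, 10 of 12 were tested and 9 were lower. edgeR called 0 without the block, where 6 had an unadjusted p under 0.05, 60% beside 25.1% of all tested genes. DESeq2 called 5, beside 7.64% of all tested genes. With the block edgeR called 9 lower, beside 17.1% of all tested genes called lower. CCNA2 (-0.95 on the log2 scale, edgeR adjusted p = 0.0265), CCND3 (-0.94, adjusted p = 0.0278) and CDK1 (-0.79, adjusted p = 0.0317) had the largest differences. CDK2, the main target of CIP/KIP proteins, was at 73.1 and 69.1 TPM in EV and 43.4 and 41.5 TPM with the FCN3 virus (-0.64 on the log2 scale, edgeR adjusted p = 0.0202, 7.68e-13 with the block). CDK4 and CDK6 differed less, by -0.20 and -0.20 (adjusted p = 0.310 and 0.552 in edgeR, 7.10e-04 and 0.00673 with the block).

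Among the 10 E2F and DP genes, E2F8, a repressive E2F factor, fell from 14.01 and 13.3 TPM to 4.47 and 3.78 TPM (-1.61 on the log2 scale, edgeR adjusted p = 0.00736). The activators E2F2 (-1.51, adjusted p = 0.01005) and E2F1 (-0.77, adjusted p = 0.0171, both in edgeR) were lower and were called with the block. There edgeR called 5 of the 10, all lower, beside 17.1% of all tested genes called lower. Of 7 MuvB and MYB genes, MYBL2, which replaces the pocket proteins on MuvB when cells enter the cycle, fell from 130 and 131 TPM to 61.3 and 62.7 TPM (-0.97 on the log2 scale, edgeR adjusted p = 0.00530). With the block edgeR called MYBL2 and MYBL1 (-0.51) lower and LIN37 (0.37) higher. That was 42.9% of the 7, near the 36.2% of all tested genes. Without the block 28.6% of the 7 had an unadjusted p under 0.05, near the 25.1% of all tested genes.

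Of the 12 genes for the turnover of CIP/KIP proteins, edgeR called 0 without the block and 6 with it, all lower. With the block, 17.1% of all tested genes were called lower. Without the block 4 of the 12, 33.3%, had an unadjusted p under 0.05, near the 25.1% of all tested genes. DESeq2 called 2, beside 7.64% of all tested genes. SKP2, the F-box protein that marks p27 for degradation, was at 30.5 and 26.4 TPM in EV and 14.2 and 13.3 TPM with the FCN3 virus (-0.82 on the log2 scale, edgeR adjusted p = 0.0263, 3.71e-13 with the block). DTL, which directs p21 to degradation in S phase, differed by -0.53 (adjusted p = 0.120 in edgeR, 1.63e-10 with the block), and CDC20 by -0.47 (adjusted p = 0.0312 in edgeR, 4.12e-11 with the block).

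Among the 16 regulators of inhibitor transcription, edgeR called 0 without the block. There 7 had an unadjusted p under 0.05, 43.8% beside 25.1% of all tested genes. DESeq2 called 2, beside 7.64% of all tested genes. With the block edgeR called 5 higher and 4 lower, beside 19.1% higher and 17.1% lower among all tested genes. MDM2, which encodes a ubiquitin ligase, was at 42.2 and 29.0 TPM in EV and 83.1 and 71.2 TPM with the FCN3 virus (1.22 on the log2 scale, edgeR adjusted p = 0.0275, 2.68e-25 with the block). CBX7 (0.53) and EZH2 (-0.51), Polycomb genes that repress the CDKN2A locus, were called by edgeR with the block and not without it.

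Of 24 genes repressed by pocket protein complexes, 23 were lower. edgeR called 3 lower without the block, beside 0.227% of all tested genes, and 23 lower with it, beside 17.1%. All 24 had an unadjusted p under 0.05 without the block, beside 25.1% of all tested genes. DESeq2 called 18, beside 7.64% of all tested genes. AURKA (log2 fold change -0.88, adjusted p = 0.00702), PLK1 (-0.89, adjusted p = 0.00806) and MCM5 (-0.87, adjusted p = 0.00802), genes of mitosis and of the replicative helicase, fell in edgeR's test without the block. The exception in direction was CDC6, with a log2 fold change of 0.35 that edgeR called with the block and not without it.

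**Figure D5:**
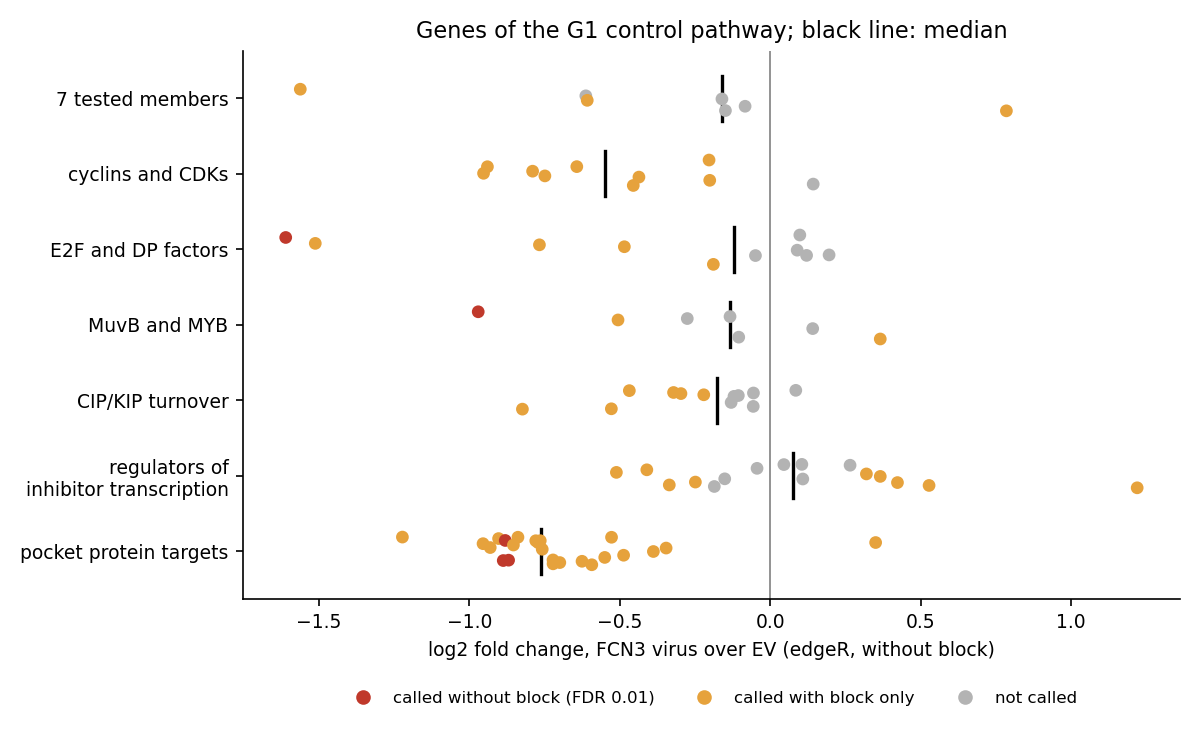
Log2 fold change of FCN3 virus over EV from edgeR without the block (horizontal axis) for the 7 tested members and the genes of 6 lists, 1 point per gene, with a black line at each median and colour for the call at an FDR of 0.01. The medians were -0.16 for the members and -0.76 for the genes repressed by pocket proteins, and the red points, called without the block, lie at -0.87 or below.

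Over the 4 libraries, the genes whose pattern lay closest to that of CDKN1A were TXNDC11, USO1 and UBE2H, with Euclidean distances of 0.0268, 0.0376 and 0.0407 between centred log2 CPM values, out of 8305 genes compared. With 4 libraries, this ranks likeness in size and replicate differences only. TXNDC11 was at 39.7 and 44.01 CPM in EV and 72.7 and 69.3 CPM with the FCN3 virus.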

How the data were processed

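Stranded mRNA libraries were sequenced from both ends. Per the labels and methods, after trimming, the authors used STAR 2.6.1d against hg19 and then RSEM to estimate abundance, giving 1 table per library. The deposited values are expected counts (not normalized) and TPM and FPKM (normalized by the authors with RSEM for length and depth). The files list RefSeq transcripts. The strand setting of the counting is not given in the sources used here.

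After rounding, expected counts went into R 4.3.3 and edgeR 4.0.16 (TMM, filterByExpr, quasi-likelihood test, Benjamini-Hochberg adjustment over 14099 genes, FDR 0.01). The SE is the size of the log2 fold change over the root of the F statistic. Alternatives were other scalings and filters, DESeq2 1.42.0, limma 3.58.1 (voom, and on log2(TPM + 1) and log2(TPM + 0.1)), the replicate number as a block, and each library left out. The code was tested on simulated counts. Shares and levels use TPM and CPM is TMM-normalized. FPKM served for 1 alternative. Gene positions are from GENCODE on GRCh37. Floors cover counting error only, whereas the SE also takes in the spread between libraries. Members and lists were chosen with earlier results of these data known. Named from each list were up to 4 genes called without the block or, with fewer than 3, the 3 largest called with it, besides CDK2, CDK4, CDK6, the 10 neighbours and 3 genes closest to CDKN1A. CDC6 and the AKTIP overlap were named after their values were seen. One further gene of the naming rule is not reported here.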

Additional observations from a re-analysis of the deposited data

Results flagged for a closer look

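One result came from the difference between replicate numbers, which is not itself a comparison of the viruses. In the blocked fit, RBL1 was 0.33 higher on the log2 scale in replicate 1 than in replicate 2 (edgeR, adjusted p = 2.91e-04, higher in both groups), where 22.1% of tested genes were called. Groups of 2 libraries were too small to look for outlying samples.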

How the results depend on the processing

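Every tested member kept its direction in all 17 alternatives. CDKN1A ranged from 0.68 to 0.85 in log2 fold change, CDKN2C from -1.75 to -1.42, RBL1 from -0.78 to -0.40, CDKN2D from -0.81 to -0.35, RB1 from -0.25 to -0.06, RBL2 from -0.26 to -0.11 and CDKN1B from -0.19 to -0.04. The value nearest 0 came without EV replicate 1 for RBL1, without FCN3 replicate 1 for CDKN2D and without FCN3 replicate 2 for RB1. The calls depended on the setting. Members called numbered 0 as reported, 2 in DESeq2, 2 at an FDR of 0.05, and 3 with the replicate block in edgeR, in DESeq2 and in limma-voom, the last chosen after seeing the data. All genes called were 136 as reported, 1077 in DESeq2, 1014 at an FDR of 0.05, and 5099, 2257 and 5136 with the block in edgeR, DESeq2 and limma-voom. Pathway list genes called were 5 as reported, 32, 31, and 56, 45 and 56 in the same order. Higher genes were 76.5% of all calls without the block, 56.9% in DESeq2 and 52.7% with the block in edgeR.

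With each library left out in turn, members called ranged from 0 to 2, all genes called from 92 to 267 and pathway list genes called from 0 to 19. CDKN1A and CDKN2C were called without EV replicate 2 (adjusted p = 0.00786 and 0.00642 in edgeR), which also gave the highest counts, 267 and 19. Without FCN3 replicate 1 or without FCN3 replicate 2, the lists had 0 calls (42 and 38 genes at an unadjusted p under 0.05). In these fits the lone library is assumed to vary like the other group. Across 8309 well expressed genes, the replicate 1 minus 2 difference in EV correlated with that in FCN3 (r = 0.807, across genes). Replicate 1 was also the deeper library in both groups. Whether this correlation came from a shared batch or from depth was not tested. From CPM in place of TPM, the shares were 41.3% for RB1 and 21.9% for RBL1 with the FCN3 virus, and 34.2% for RBL2 in EV. Without a filter, CDKN1C, CDKN2A and CDKN2B were tested and not called. Counts of 0 to 4 leave changes in these genes undetectable at this depth.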
